A study of Mus musculus with 6 samples.

Results

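The 10 genes described here belong to the hypoxia-inducible factor (HIF) pathway and were chosen by name, with earlier results of these data known. Hif1a, Vhl, Egln1 and Egln3 form the sensing and regulatory arm, and Car9, Ankrd37, Bnip3, Ndrg1, P4ha1 and P4ha2 are HIF target genes outside glycolysis. All 10 were among the 16081 genes listed in the deposited tables and among the 11552 that passed the filter on low counts. The data were RNA-seq profiles of Lewis cells, a mouse lung carcinoma line described in the labels as lung adenocarcinoma cells, kept for 24 hours with SD70, an inhibitor of the histone demethylase KDM4C, or with the vehicle DMSO. Each group had 3 samples, numbered 1 to 3. No genetic change was stated for either group, and the medium, serum and CO2 were shared by both. The labels gave no SD70 dose for these samples and no oxygen level. All samples came from a single cell line, and the labels did not say whether the 3 samples of a group came from separate cultures. The paper speaks in general of independent repeats of its experiments, without saying it of these samples. P-values measure the spread between these samples, which may be technical.

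HIF is a dimer of an oxygen-regulated alpha subunit, such as the product of Hif1a, and a constant beta subunit, the product of Arnt. While oxygen is present, the prolyl hydroxylases of the Egln family mark the alpha subunit, and the ubiquitin ligase that contains the Vhl protein sends it for degradation. When oxygen falls, the alpha subunit escapes, and the dimer binds short DNA elements and switches on genes for glycolysis, pH control, mitophagy, collagen modification and blood vessel growth. Because control acts mostly on the stability of the protein, the level of Hif1a mRNA and the activity of the factor need not move together. These data hold mRNA only. Egln1 and Egln3 are themselves known HIF targets in many cells, so they belong to both arms of the comparison.

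The short element that HIF binds is shown first. Its core was searched as ACGTG or GCGTG on either strand (CACGT and CACGC when read on the gene's strand), and matches that overlap on opposite strands were counted separately. The window ran from 250 bases before to 50 bases after the start site given by RefSeq for GRCm38.p6, 300 bases in all, and 9 of the 10 members were matched to it, Ndrg1 being the other one. The runs below are the 30 bases before the start that hold the most cores, written 5′ to 3′ on the strand of the gene with the cores in capitals. They are printed so that the cores of Hif1a, which rose, can be set beside those of the members that fell.
Hif1a, chr12:73907720-73907749, plus strand: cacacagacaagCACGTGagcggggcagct
Egln1, chr8:124949306-124949335, minus strand: ggggccgtggtgtACGTGcagcgcgcgcgg
Egln3, chr12:54204087-54204116, minus strand: atgtgcatctcagACGTGagatccaggttt
Car9, chr4:43506995-43507024, plus strand: cctatttccgatgCACGTacagcccgtcca
Ankrd37, chr8:45999987-46000016, minus strand: ccttcactgcgCACGCGTGctgcggccgcc
Bnip3, chr7:138909598-138909627, minus strand: ggcgCACGCgccgCACGTGccaCACGCtcc
P4ha1, chr10:59323266-59323295, plus strand: ggtgtgacagagcgCACGTagcgagggctg
P4ha2, chr11:54100838-54100867, plus strand: catcgcatACGTGcagcGCGTGgcggctcg

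Over the whole windows, Bnip3 held 5 cores, Ankrd37 and P4ha2 held 4 each, Hif1a and P4ha1 held 3 each, Egln1 held 2, and Egln3 and Car9 held 1 each. No core was found in the window of Vhl, which says only that these letters are not in that stretch. Thus 8 of the 9 windows held a core, and each of the 8 held ACGTG. Among the 9284 windows of tested genes, 64.4% held a core and 26.3% held ACGTG, and among all 27025 windows the shares were 43.8% and 19.7%. The counts are a description and were not tested, and a match is not evidence of binding. In Car9 the core lay closest to the start among the genes with 1 core, with its first base 18 bases before it, whereas in Egln3 it lay 229 bases before. In Hif1a and Bnip3 the hexamer CACGTG gave 2 overlapping cores, 1 per strand. The windows of Hif1a and Ankrd37 lie wholly inside the annotated spans of their genes. For P4ha1 the start used also lies inside the span, and so does the run printed above.

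SD70 moved the pathway in opposite directions. Hif1a mRNA rose, whereas Egln1, Egln3 and each of the 6 targets fell, and Vhl did not pass the test. In edgeR's quasi-likelihood test, with p-values adjusted over all genes tested, 9 of the 10 members were at an adjusted p under 0.01, against 49.9% of all genes tested. Of these, 1 was higher with SD70, against 25.8% of all genes, and 8 were lower, against 24.2%. A log2 fold change of -1 or less with a passing test was reached by 5 members, namely Egln1, Egln3, Car9, Ankrd37 and Bnip3, against 2.61% of all genes. The 3 SD70 samples and the 3 DMSO samples did not overlap in 9 members, against 64.4% of all genes tested. A passing test was thus common among all genes, and a fall of 2-fold or more was not. Because the members were chosen with earlier results of these data known, their counts are a description and not a test of enrichment.

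Hif1a (NCBI Gene 15251, chr12:73901324-73947554 of GRCm38.p6, plus strand) encodes the oxygen-regulated alpha subunit. DMSO samples 1, 2 and 3 held 10689, 10663 and 10619 normalised reads of it, and SD70 samples 1, 2 and 3 held 19958, 18758 and 20000. The lowest SD70 sample lay far above the highest DMSO sample, and the DMSO samples hardly differed among themselves (10657 ± 35.3 against 19572 ± 705 in the treated cells, SD, n = 3). This is a 1.84-fold rise, or 0.88 in log2 units (standard error 0.0478, adjusted p = 2.27e-17). Among all genes tested this change stood at percentile 95.4 when ordered from the largest fall to the largest rise. In the GENCODE annotation the antisense Gm15283 shares 46156 bases with it, nearly its whole span. The same-strand Gm49321 shares 9878 bases, and neither gene was tested. The sources used here do not say whether counting used strand.

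Egln1 (NCBI Gene 112405, chr8:124908587-124949254, minus strand) encodes PHD2, the main prolyl hydroxylase that marks HIF-1α in normal oxygen. The vehicle samples held 5963, 5046 and 5508 normalised reads, in the order 1 to 3, and the treated samples 2758, 2817 and 2514. The groups were separate by a wide margin. The fall came to -1.03 on the log2 scale (standard error 0.0574, adjusted p = 6.31e-16), which left 49.0% of the DMSO level. This value stood close to the 2-fold limit, and it came to -0.97 without DMSO replicate 1 and -0.99 without SD70 replicate 3, with the adjusted p still under 0.01.

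Egln3 (NCBI Gene 112407, chr12:54178981-54203874, minus strand) encodes PHD3, a hydroxylase that is strongly induced by hypoxia in many cells. In the same order, the values were 7159, 6161 and 6826 normalised reads for the vehicle and 3117, 3372 and 2640 for the treated samples. SD70 sample 3 was the lowest, and all SD70 samples were below all DMSO samples. The gene kept 45.3% of its DMSO level, a change of -1.14 in log2 units (standard error 0.0834, adjusted p = 1.75e-07). The ratio of Egln3 to Egln1 in FPKM, a level per gene length and library size, was 1.63 ± 0.0240 with DMSO and 1.51 ± 0.0969 with SD70 (SD, n = 3, exact two-sided permutation p = 0.1, the smallest that 3 against 3 allows).

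Vhl (NCBI Gene 22346, chr6:113623994-113631634, plus strand) encodes the substrate-binding part of the ligase that recognises hydroxylated HIF-1α. It gave 831, 753 and 821 normalised reads in the vehicle samples and 746, 755 and 655 in the treated ones. The groups overlapped, since SD70 sample 2 was above DMSO sample 2. The difference of -0.16 in log2 units (standard error 0.0666, adjusted p = 0.0422) did not pass the threshold of 0.01 but would pass one of 0.05. It came to -0.10 without SD70 replicate 3.

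**Figure D1:**
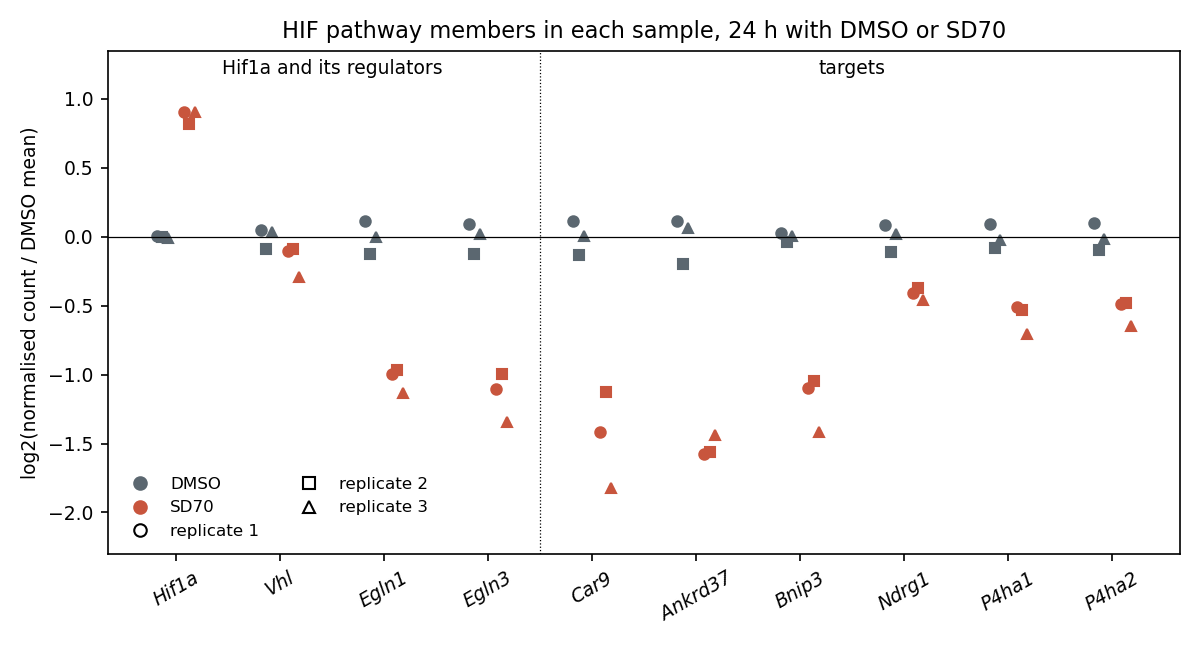
Normalised read count of each member in each sample, as log2 of its ratio to the DMSO mean (y axis), for DMSO (grey) and SD70 (red), with a symbol for each replicate number. Hif1a lies above the line in the 3 SD70 samples, Vhl overlaps, and the other 8 members lie below it in the 3 SD70 samples, with SD70 sample 3 the lowest in 7 of these 8.

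The targets covered several functions, and each of the 6 fell. Ankrd37 (NCBI Gene 654824, chr8:45996908-46000414, minus strand) encodes an ankyrin repeat protein known as a HIF target, and with Car9 it had the largest falls among the members, in an order that turned when SD70 replicate 2 was left out (-1.50 for Ankrd37 and -1.60 for Car9). Its normalised reads numbered 219, 177 and 212 in the vehicle samples and 68.0, 68.5 and 74.8 in the treated samples, so that the SD70 samples were close together and far below the DMSO samples. It kept 34.7% of its DMSO level, a change of -1.52 in log2 units (standard error 0.128, adjusted p = 2.16e-12). Genes on the opposite strand overlap it in the GENCODE annotation, whose model of Ankrd37 is longer than the RefSeq span given above. Ufsp2 shares 57 bases with it and had a log2 fold change of -0.26 (adjusted p = 2.57e-04), and Lrp2bp shares 6405 bases of that longer model but had only 1 to 3 counts per sample.

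Car9 (NCBI Gene 230099, chr4:43507026-43513729, plus strand) encodes carbonic anhydrase IX, a cell surface enzyme of pH control that is widely used as a marker of hypoxia. Per gene length it was the lowest member in FPKM in every sample, and it had 211, 178 and 196 normalised reads in the vehicle samples and 73.1, 89.4 and 55.0 in the treated samples. The SD70 samples were the most spread of any member relative to their mean, yet none reached the lowest DMSO sample. What remained was 37.4% of the DMSO level, a change of -1.42 in log2 units (standard error 0.138, adjusted p = 7.34e-11), which came to -1.27 without SD70 replicate 3. The antisense Gm12454 shares part of its span and was not tested.

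Bnip3 (NCBI Gene 12176, chr7:138890836-138909506, minus strand) encodes a protein of the outer mitochondrial membrane that acts in mitophagy, the removal of mitochondria by autophagy. Vehicle samples 1 to 3 held 7023, 6723 and 6923 normalised reads, and treated samples 1 to 3 held 3214, 3342 and 2588. All SD70 samples were below all DMSO samples, and SD70 sample 3 was again the lowest. Bnip3 kept 44.3% of its DMSO level (-1.18 in log2 units, standard error 0.0725, adjusted p = 4.58e-10). The gene shares its span with the antisense Gm45507 and the processed pseudogene Gm18258, neither of them tested.

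The 2 prolyl 4-hydroxylase subunits hydroxylate proline in collagen, a reaction that needs oxygen. P4ha1 (NCBI Gene 18451, chr10:59323197-59373304, plus strand) had 4644, 4107 and 4288 normalised reads in the vehicle samples against 3047, 3006 and 2670 in the treated ones. Its groups were separate, and 66.9% of the DMSO level remained (-0.58 in log2 units, standard error 0.0553, adjusted p = 7.44e-11). P4ha2 (NCBI Gene 18452, chr11:54100924-54131668, plus strand) had 1241, 1085 and 1145 normalised reads against 827, 828 and 739, again with no overlap. It kept 69.1% of the DMSO level (-0.53 in log2 units, standard error 0.0634, adjusted p = 6.30e-09). The FPKM ratio of P4ha1 to P4ha2 was 2.85 ± 0.0404 with DMSO and 2.78 ± 0.0703 with SD70 (SD, n = 3, exact two-sided permutation p = 0.3), and the ranges of the ratio overlapped.

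Ndrg1 (NCBI Gene 17988, chr15:66929318-66969641, minus strand) encodes a stress-responsive protein that is induced by hypoxia and linked to differentiation. It had the smallest fall among the targets. Gm17035 and Gm2895 on the opposite strand share part of its span, and neither was tested. The vehicle samples gave 12325, 10710 and 11725 normalised reads and the treated samples 8723, 8953 and 8437, without overlap. It kept 75.1% of its DMSO level (-0.41 in log2 units, standard error 0.0515, adjusted p = 1.82e-08). The spread among targets was thus wide, from 34.7% of the DMSO level for Ankrd37 to 75.1% for Ndrg1, and an exact two-sided permutation test of each of the 9 members with separate groups gave p = 0.1, the smallest possible with 3 against 3, against 0.2 for Vhl. The permutation tests here exchanged samples freely, and within pairs of equal replicate number the smallest two-sided p would be 0.25.

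Per gene length, the order of the members changed with SD70. In DMSO, Bnip3 (265 FPKM) and Ndrg1 (260 FPKM) were the highest and overlapped, followed by Egln3 (164 FPKM) and Hif1a (153 FPKM), which also overlapped. Egln1 (100.4 FPKM) and P4ha1 (95.4 FPKM) formed the next overlapping pair, then came P4ha2 (33.5 FPKM), the overlapping Vhl (19.1 FPKM) and Ankrd37 (16.7 FPKM), and last Car9 (6.66 FPKM). In SD70, Hif1a was at the top with 277.98, 260.88 and 280.61 FPKM in samples 1, 2 and 3, above all other members in every sample. It was followed by Ndrg1 (191 FPKM), Bnip3 (115 FPKM), Egln3 (72.6 FPKM), P4ha1 (63.0 FPKM), Egln1 (48.0 FPKM), P4ha2 (22.6 FPKM), Vhl (16.8 FPKM), Ankrd37 (5.73 FPKM) and Car9 (2.44 FPKM). Only Egln3 and P4ha1 overlapped as neighbours in that order.

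**Figure D2:**
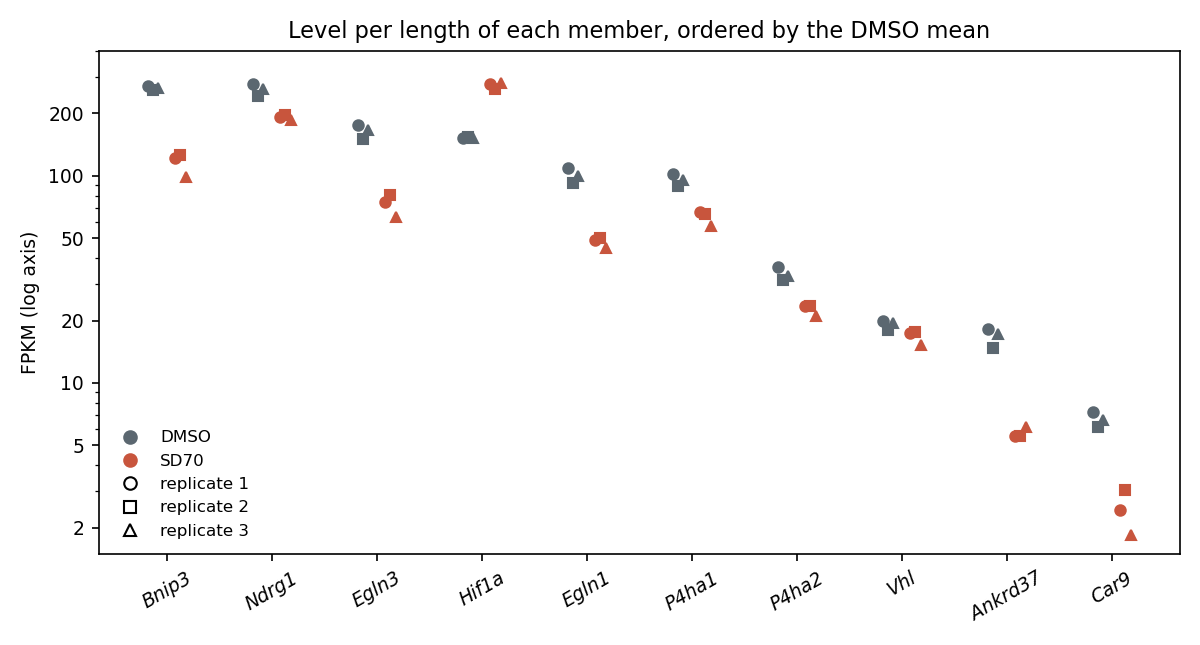
FPKM of each member in each sample on a log axis, ordered by the DMSO mean, for DMSO (grey) and SD70 (red), with a symbol for each replicate number. Hif1a moves from the fourth place with DMSO (153 FPKM) to the first with SD70 (273 FPKM), while Bnip3 moves from 265 to 115 FPKM.

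The gap between Hif1a and its regulators widened with SD70. The FPKM ratio of Hif1a to Egln1 was 1.40, 1.66 and 1.52 in vehicle samples 1 to 3 and 5.67, 5.19 and 6.26 in treated samples 1 to 3, or 1.53 ± 0.131 against 5.71 ± 0.534 (SD, n = 3). The ratio to Egln3 went from 0.935 ± 0.0750 to 3.81 ± 0.605, and the ratio to Vhl from 7.99 ± 0.458 to 16.4 ± 1.79 (SD, n = 3 in each case). In each of the 3 ratios the groups did not overlap (exact two-sided permutation p = 0.1, the smallest possible). In the other direction, the ratio of Bnip3 to Hif1a was 1.74 ± 0.0442 with DMSO and 0.423 ± 0.0676 with SD70. In bulk samples, fewer cells of a type and less RNA per cell cannot be told apart.

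**Figure D3:**
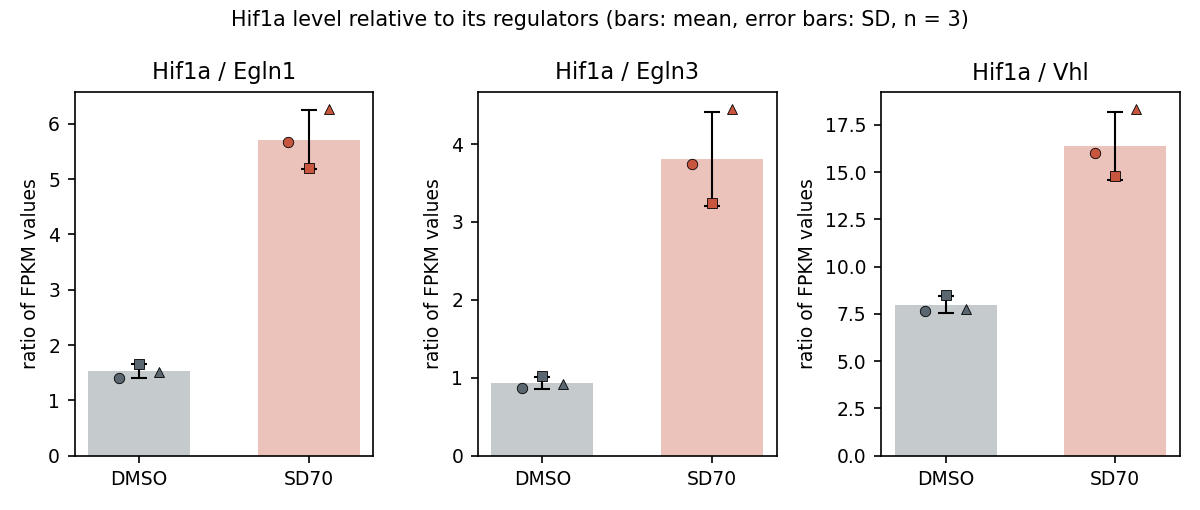
Ratio of the FPKM of Hif1a to that of Egln1, Egln3 and Vhl (y axes from 0) in DMSO (grey) and SD70 (red), with bars for the mean, error bars for the SD and points for the 3 samples. The ratio to Egln1 rises from 1.53 to 5.71, that to Egln3 from 0.935 to 3.81 and that to Vhl from 7.99 to 16.4.

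Set against each other, the targets moved in a single direction and the sensing arm did not. The 6 targets had a median log2 fold change of -0.88, and the 4 genes of the sensing arm one of -0.59, with changes from -1.14 for Egln3 to 0.88 for Hif1a. With so few genes the median of the sensing arm depends on its make-up, and it was -0.16 without Egln3 and -1.03 without Hif1a, the latter below that of the targets. The median over all genes tested was -0.0043. Sample by sample, relative to the DMSO mean, the targets' median was 0.099, -0.10 and 0.0061 with DMSO and -0.81, -0.79 and -1.06 with SD70, and that of the sensing arm was 0.072, -0.11 and 0.012 with DMSO and -0.55, -0.53 and -0.71 with SD70. SD70 sample 3 was the lowest in both arms, and without it the medians were -0.80 for the targets and -0.54 for the sensing arm. Among the DMSO samples, sample 1 was the highest and sample 2 the lowest in each of the 8 members that fell. These medians are descriptions and were not tested.

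The rest of the sensing machinery gave few changes of that size. Among the subunits, Arnt had a log2 fold change of -0.18 (adjusted p = 0.00701). Hif3a, an alpha subunit that can oppose the others, had 4 to 16 counts per sample and a log2 fold change of -1.21 (adjusted p = 0.0122), and Epas1, which encodes HIF-2α, had at most 1 count in any sample. Of the list of hydroxylases and parts of the VHL ligase, 12 of 12 genes were tested, 2 were higher and 3 lower, with a median of -0.06. Without the members Vhl, Egln1 and Egln3, 9 were tested, 2 were higher and 1 lower, with a median of 0.04. Among all genes tested, 25.8% were higher and 24.2% lower. The higher ones were Siah2 (0.89, adjusted p = 3.23e-13), a ubiquitin ligase that targets prolyl hydroxylases, and Cul2 (0.32, adjusted p = 4.61e-06), the scaffold of the VHL ligase. Rbx1, its RING subunit, was lower (-0.29, adjusted p = 6.28e-04), as were Egln1 and Egln3.

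The remaining genes of that list did not pass the test. Egln2, the third prolyl hydroxylase of the family, had a log2 fold change of -0.08 (adjusted p = 0.450), and Hif1an, which encodes the asparaginyl hydroxylase FIH, one of 0.15 (adjusted p = 0.0278). The FPKM values of Egln1, Egln2 and Egln3 summed to 272 with DMSO and 128 with SD70. Egln3 made up 60.2% of this sum with DMSO and 56.7% with SD70, Egln1 36.9% and 37.5%, and Egln2 2.94% and 5.82%. In the list of coactivators and their inhibitors, 3 of 4 tested genes were higher and none lower, against 25.8% and 24.2% of all genes tested. They were the coactivators Ncoa1 (0.30) and Crebbp (0.30), and Cited2 (0.24), an inhibitor that competes with HIF for the coactivators.

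Around the targets, other non-glycolytic HIF genes were mostly lower. Leaving out the members, 20 further genes of the 4 target lists were tested, of which 17 were lower and 1 was higher, with a median of -0.67. Over all genes tested, 24.2% were lower and 25.8% higher, which is the background for each list count. In the list of mitochondrial and mitophagy genes, 4 of 4 tested genes were lower (median -0.70), with Fam162a at -0.75, Bnip3l, the paralogue of Bnip3, at -0.64 and Higd1a at -0.63 beside Bnip3. In the list of collagen-modifying enzymes, 7 of 7 tested genes were lower (median -0.58), among them the lysyl hydroxylases Plod1 (-0.77) and Plod2 (-0.64) and the lysyl oxidase Loxl2 (-0.65), whose counts were partly not whole and may be shared with similar sequences. Lox and P4ha3 had too few counts to be tested, at most 13 and 6 per sample.

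The list of stress and growth control genes had 11 tested genes, of which 10 were lower (median -0.75). Next to Ankrd37, the transcriptional repressors Bhlhe41 (-1.35) and Bhlhe40 (-1.17) and the hormone Stc1 (-1.08) fell the most. Ddit4, an inhibitor of mTORC1 that is also induced by other stresses, was the 1 that rose (0.60, adjusted p = 4.03e-10), and it is named after its value was seen. In the list of pH and ion transport genes, 2 of 4 tested genes were lower, Car9 and the lactate exporter Slc16a3 (-0.71, adjusted p = 4.04e-14). Car12, the other membrane carbonic anhydrase of the list, had a log2 fold change of 0.26 (adjusted p = 0.121). Stc2 and Cited4 were not analysed here.

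**Figure D4:**
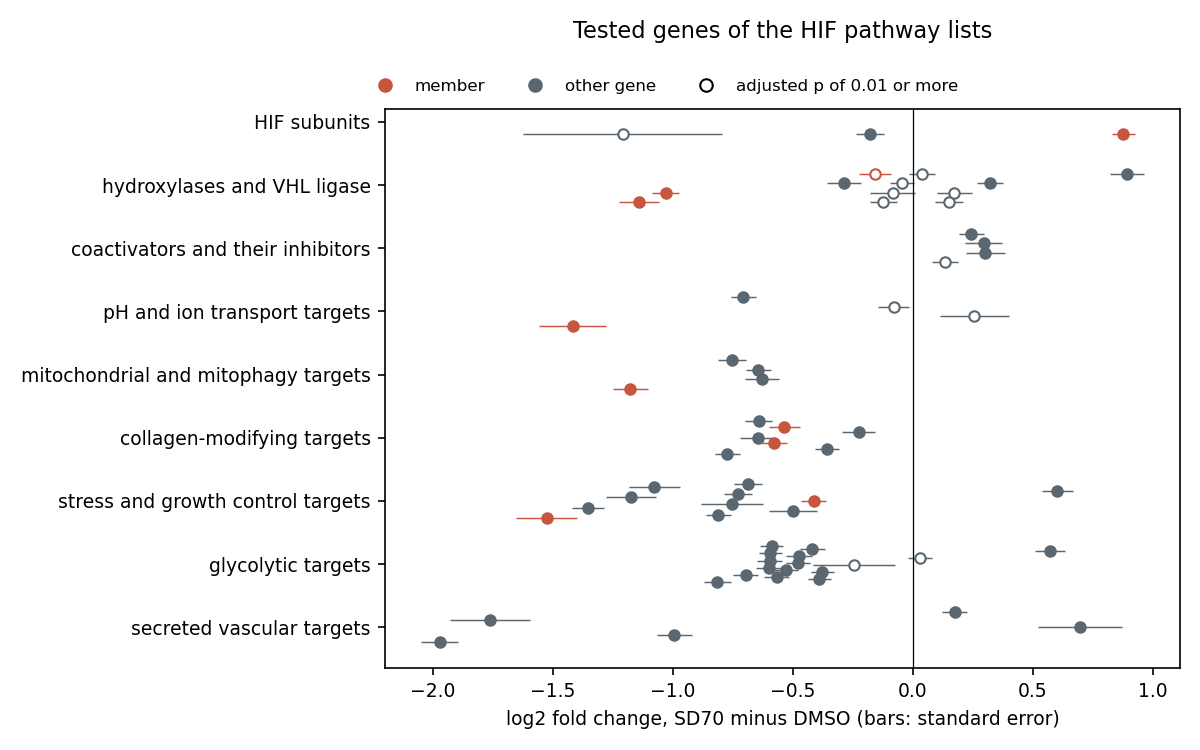
Log2 fold change with its standard error (x axis, SD70 minus DMSO) of every tested gene in the HIF pathway lists, with members in red, other genes in grey and open circles for genes at an adjusted p of 0.01 or more. The mitochondrial and collagen-modifying lists lie wholly below 0 (medians -0.70 and -0.58), while the hydroxylase and ligase list spreads around 0 (median -0.06).

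For comparison, 13 of 16 tested glycolytic HIF targets were lower and 1 was higher, with a median of -0.50. The higher one was Pfkfb3 (0.57, adjusted p = 1.03e-09), named after its value was seen. The secreted vascular factors were mixed, with 3 of 5 tested genes lower and 2 higher. Apln, a peptide hormone, had the largest fall there (-1.97), followed by Adm, which encodes adrenomedullin (-1.76), while Angptl4 rose (0.70, adjusted p = 8.99e-04), and so did Vegfa, the main angiogenic factor (0.17, adjusted p = 0.00374), which is named after its value was seen. The lists were chosen with earlier results of these data known and were not tested as sets. Of all genes tested, 24.2% were lower and 25.8% higher.

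By profile over the 6 samples, the gene nearest to Egln3 was another member. The measure was the root-mean-square distance between mean-centred log2 CPM values, and Bnip3 was at 0.0541, followed by Ppp1r3b, a glycogen-targeting phosphatase subunit, at 0.0550 and Cxxc5, a zinc finger protein, at 0.0622. Ppp1r3b had a log2 fold change of -1.20 and Cxxc5 one of -1.15. The genes nearest to Ankrd37 were Efna1, an ephrin ligand, at 0.0958, Adam8, a metalloprotease, at 0.103 and Padi1, a peptidylarginine deiminase, at 0.104, with log2 fold changes of -1.54, -1.63 and -1.51. These distances are dominated by the difference between the groups and are given as a description.

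Totals ranged from 15276744 to 17060424 counts per sample, the lowest being SD70 sample 3, and 14062 to 14105 genes per sample had a count above 0. Among the epithelial markers, Krt8 went from 146 to 97.8 FPKM with SD70 (-0.55 in log2 units, adjusted p = 3.28e-11) and Krt18 was also lower (-1.22), whereas Epcam, Cdh1 and Krt19 had at most 1 count per sample. Of the alveolar markers, only 2 of 5 were analysed. Sftpc had at most 1 count per sample, whereas Napsa had 65 to 85 counts, at 3.54 FPKM with DMSO and 3.34 with SD70. Mesenchymal markers were expressed, with Vim at 2489 FPKM with DMSO and 1765 with SD70 and 4 of 5 markers tested, 3 lower and 1 higher. Immune markers summed to 0.74 to 1.13 FPKM with DMSO and 1.34 to 1.94 FPKM with SD70 over the 3 of 7 listed, with Ptprc at most at 2 counts, and endothelial markers to 0.90 to 1.07 and 0.98 to 1.22 FPKM. Most of the endothelial sum was Cdh5, at a mean of 0.927 FPKM with DMSO and 0.997 with SD70. The part of these shifts in the members' changes was not tested.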

How the data were processed

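Per the labels, mRNA was purified with oligo(dT) beads. The authors aligned clean BGISEQ-500 reads to GRCm38.p6 with HISAT, as the paper's methods state. The submitters' processing notes also name StringTie 1.3.3b and another, older genome build. The tables hold no coordinates, so this conflict could not be settled, and positions and promoter sequences here are from RefSeq for GRCm38.p6. The labels' extraction protocol speaks of tissue, although the samples are cultured cells. The counting tool, its strand setting and the SD70 dose are not given in the sources used here. For each gene the authors deposited an expected count that was not normalised. The authors also deposited a level that is read as FPKM from its values, since the column heading does not name the unit.

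Expected counts (8.84% to 9.28% of values per sample not whole, none of them in the members) were rounded, filtered with filterByExpr, normalised by TMM (factors 0.984 to 1.02) and compared by edgeR's quasi-likelihood test (glmQLFit with robust estimation, then glmQLFTest; edgeR 4.0.16, R 4.3.3) with Benjamini-Hochberg adjustment over 11552 genes. A gene rose or fell at an adjusted p under 0.01. Genes called in the closing part also had a log2 fold change of 1 or more in size. Normalised reads or counts are counts brought to a common effective library size, the mean over samples. Standard errors come from the quasi-likelihood F statistic. Alternatives were DESeq2 size factors, no filter, a minimum of 10 counts in each sample, the replicate block, leaving out each sample, DESeq2 1.42.0, limma 3.58.1 on log2(FPKM + 1) and log2(FPKM + 0.1), and an adjusted p under 0.05. The tests were tried first on simulated data with a common dispersion for all genes and far fewer changed genes than here. That trial was a check of the code, and its result does not carry over to these data. Precision is limited by 3 samples per group, with a common biological coefficient of variation of 0.0460, and by counting error in Car9 and Ankrd37. Within groups, samples differed by more than counting noise (chi-square per gene 2.12 to 4.98), so all 6 were kept.

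The labels number the samples 1 to 3 in both groups without stating a shared batch. Deviations from the group means correlated between same-numbered samples (Pearson's r 0.176, 0.254 and 0.157 over 9624 genes, which are not independent replicates). Between samples of different numbers, r ranged from -0.186 to 0.0112. The numbers may thus pair the samples. The main fit, with its fold changes and adjusted p-values, had no replicate term and did not use such a pairing. It entered only as the replicate block among the alternatives.

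The members, the pathway lists and the marker lists were chosen with earlier results of these data known. Every member is named, with up to 4 genes per list by size of change among those past the test, any tested gene of the subunit and hydroxylase lists, and the 3 genes nearest in profile to the most changed regulator and target, apart from genes said to be named after their values were seen. Some genes counted in the lists are not reported here by name.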

Additional observations from a re-analysis of the deposited data

How the results depend on the processing

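Each of the 10 members was refitted under 14 alternatives, which gave 140 values. Of these, 139 kept their direction and their side of the threshold and none reversed, and the other one was Vhl, which passed at an adjusted p under 0.05. The adjusted p of Vhl ranged from 0.0186 to 0.222. Hif1a ranged from 0.84 to 0.91 on the log2 scale, Egln1 from -1.10 to -0.97, Egln3 from -1.22 to -1.06, Car9 from -1.60 to -1.17, Ankrd37 from -1.63 to -1.39, Bnip3 from -1.25 to -1.08, Ndrg1 from -0.48 to -0.37, P4ha1 from -0.63 to -0.53 and P4ha2 from -0.59 to -0.48. The median of the targets ranged from -0.92 to -0.80 and that of the sensing arm from -0.66 to -0.54. With the replicate block, Egln3 came to -1.14 and Vhl to -0.16, 692 genes were called at a 2-fold change in place of 681, and no call of a member changed. The number of genes called fell to 283 with limma on log2(FPKM + 1), where a pseudocount of 1 shrinks the change of low genes, and lay between 621 and 721 with 1 sample left out. Depth limits Car9 and Ankrd37 most, which had 50 to 225 counts per sample, and Epas1, Lox and P4ha3 were too low to test.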
